A study of Mus musculus with 6 samples.

Results

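The BCL2 family members described here are 9 genes taken by symbol, all of them found among the 10932 genes listed in both deposited tables of the study. They are the effectors Bax, Bak1 and Bok, the pro-survival genes Bcl2, Bcl2l1 and Mcl1, and the BH3-only genes Bid, Bad and Bcl2l11. Transcripts were measured by RNA sequencing in E0771, an established mouse breast cancer line of C57BL/6 background. All cells were grown in 6-well plates for 48 h. The 2 EnnA libraries came from cells given Enniatin A, a fungal cyclic depsipeptide that acts as an ionophore, at 7.4 µM for 24 h. The 2 17-AAG libraries came from cells given 17-AAG, a geldanamycin analog that inhibits HSP90, at 0.5 µM for 24 h. The 2 DMSO libraries came from solvent controls, whose time of exposure is not given in the labels. The series title concerns HSP90 inhibition and immune activation as a breast cancer strategy.

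BCL2 family proteins decide whether the outer membrane of the mitochondrion stays closed. BAX and BAK assemble into pores that release cytochrome c, which leads to caspase activation, whereas BCL-2, BCL-xL and MCL-1 hold them, and the BH3-only proteins, in inactive complexes. BH3-only proteins are the sensors of the family: they bind the pro-survival proteins and some also activate the effectors directly. Much of this control acts on proteins, by cleavage, phosphorylation and degradation, which transcript levels do not show.

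Each deposited table gives 1 FPKM value per gene and group, pooled by the authors over 2 libraries, so no spread between libraries stands beside a level, and depth per library is unknown. A gene is called when its q in the authors' deposited table is under 0.05. The size of a change is given as log2((compound + 1)/(DMSO + 1)) of the FPKM values, written log2(FPKM + 1) change, which understates changes of low genes. Errors are standard errors of the deposited log2 ratio, implied by the authors' p, and an error marked "at most" belongs to a gene at the lowest p listed, 5e-05. The 95% intervals are made from these errors with normal quantiles, so for a gene at the lowest p they are upper limits of the width. Of the markers fixed for epithelium, luminal Krt8 was listed at 11.2 FPKM with EnnA, 29.3 FPKM with 17-AAG, and 17.7 and 19.3 FPKM with DMSO, and Epcam at 1.61 to 1.85 FPKM. The other luminal markers, Krt18, Krt19 and Cdh1, were not listed. Of 5 basal markers Acta2 alone was listed, at 34.5 FPKM with EnnA and 133 FPKM with DMSO, and at 169 FPKM with 17-AAG and 146 FPKM with DMSO. Of 6 mesenchymal markers 4 were listed: Vim had 1209 FPKM with EnnA and 2746 FPKM with DMSO, and 2154 FPKM with 17-AAG and 3009 FPKM with DMSO. The other listed mesenchymal markers were slightly higher with EnnA, Zeb1 at 17.7 against 15.3 FPKM with DMSO, Zeb2 at 35.0 against 25.1 FPKM and Twist1 at 39.9 against 37.7 FPKM. With 17-AAG Zeb1 had 18.6 against 16.7 FPKM with DMSO, Zeb2 22.3 against 27.5 FPKM and Twist1 31.2 against 41.3 FPKM. Of 6 leukocyte markers Cd14 alone was listed, at 1.69 to 2.82 FPKM. The part of these marker changes in the results was not tested. Fewer cells of a kind and less RNA per cell cannot be told apart in such bulk samples.

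With DMSO the family was led by Bax, at 167 FPKM in the EnnA table and 183 FPKM in the 17-AAG table. These are the same libraries scaled differently: the 9 members' DMSO values in the 17-AAG table were 1.10 times those in the EnnA table, the same ratio as at the median of all genes. After Bax came Bcl2l1 (95.1 FPKM in the EnnA table), Mcl1 (75.7), Bak1 (75.2), Bok (40.9), Bcl2l11 (14.5), Bad (14.4), Bid (12.6) and Bcl2 (2.33). Bax thus stood at percentile 95.3 of the DMSO levels of all listed genes and Bcl2 at percentile 13.8. Neighbours in this order could not be tested for lack of a spread, and Mcl1 and Bak1, and likewise Bcl2l11 and Bad, were within 1 FPKM of each other. All 9 members had at least 1 FPKM in every group. The mm9 loci in the authors' deposited tables are 52717064 to 52722268 on chromosome 7 for Bax, 95582270 to 95592339 on chromosome 1 for Bok and 95462642 to 95467101 on chromosome 3 for Mcl1. Those of Bcl2l1 and Bcl2l11 are both on chromosome 2, at 152606403 to 152657418 and 127951773 to 127988283, and whether starts count from 0 is not stated.

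**Figure D1:**
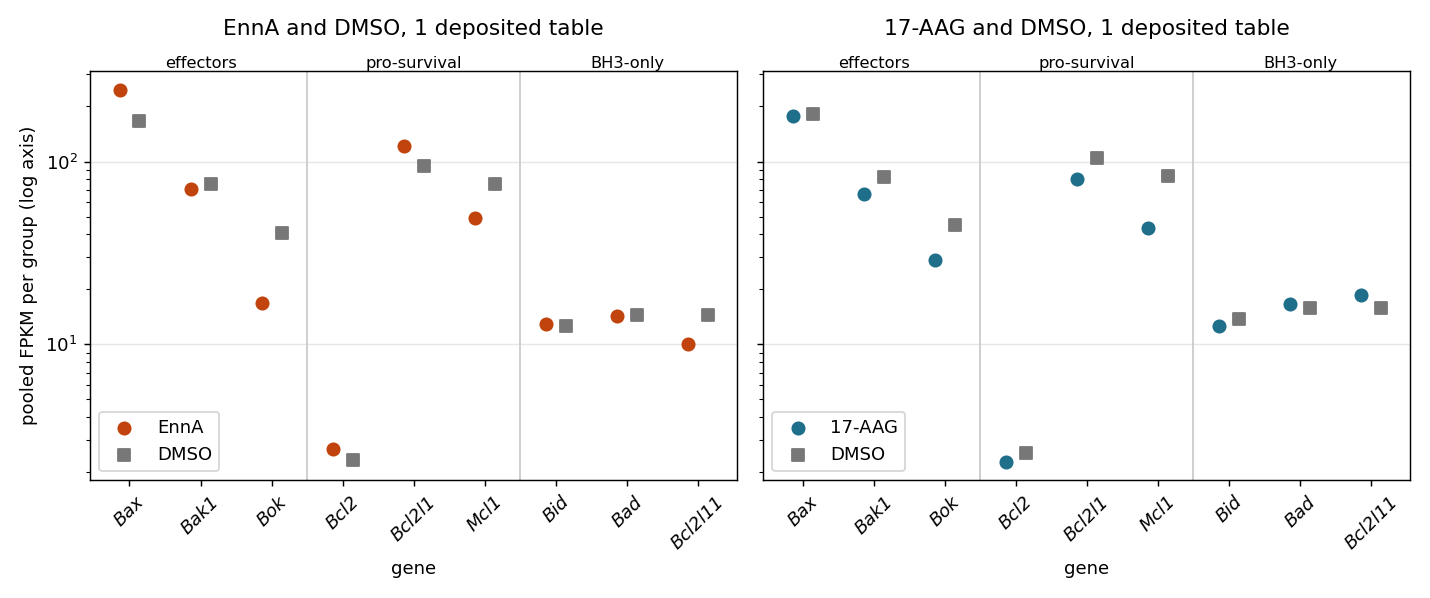
Pooled FPKM (log axis) of the 9 genes, in the EnnA table on the left and the 17-AAG table on the right, with circles for the compound and squares for DMSO. Bok with EnnA (16.9 FPKM against 40.9 FPKM with DMSO) and Mcl1 with 17-AAG (43.5 FPKM against 82.9 FPKM) show the widest gaps of each table.

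The start-site windows of 3 members are shown as examples: Bok and Mcl1, the members called lower with both compounds, and Bax, the most abundant member, called higher with EnnA. Bcl2l1 and Bcl2l11, which were also called, have several RefSeq starts and are not shown. Each runs from 250 bases before to 50 bases after a RefSeq gene start (GRCm38.p6, a later build than the mm9 of the deposited loci), 5′ to 3′ along the gene. Capitals mark matches to the motifs searched. Bax lies at chr7:45466849-45467148 (minus strand), Bok at chr1:93685325-93685624 (plus strand) and Mcl1 at chr3:95658471-95658770 (plus strand).
Bax: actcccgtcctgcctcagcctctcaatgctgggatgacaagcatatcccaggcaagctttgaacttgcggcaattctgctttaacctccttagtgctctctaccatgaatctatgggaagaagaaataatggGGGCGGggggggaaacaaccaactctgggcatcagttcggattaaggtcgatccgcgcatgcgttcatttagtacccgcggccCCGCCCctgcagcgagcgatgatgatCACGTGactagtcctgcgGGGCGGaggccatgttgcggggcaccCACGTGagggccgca
Bok: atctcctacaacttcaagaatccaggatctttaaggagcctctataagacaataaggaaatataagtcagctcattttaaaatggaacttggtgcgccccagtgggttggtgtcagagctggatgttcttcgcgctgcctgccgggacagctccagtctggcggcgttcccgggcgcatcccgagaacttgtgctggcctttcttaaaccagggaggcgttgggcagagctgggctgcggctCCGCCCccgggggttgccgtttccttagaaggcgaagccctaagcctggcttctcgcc
Mcl1: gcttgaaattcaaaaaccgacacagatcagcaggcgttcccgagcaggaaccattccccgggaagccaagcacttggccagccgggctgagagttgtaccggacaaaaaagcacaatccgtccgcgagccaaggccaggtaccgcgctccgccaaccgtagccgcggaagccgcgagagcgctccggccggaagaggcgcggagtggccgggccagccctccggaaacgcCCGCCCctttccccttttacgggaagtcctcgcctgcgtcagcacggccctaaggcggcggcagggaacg
The Bax window holds 3 GC boxes (GGGCGG, first bases at -118, -35 and 10 from the start) and 2 E-boxes (CACGTG, at -9 and 36). The Bok and Mcl1 windows each hold 1 GC box, on the reverse strand at -8 and -20, and no other match.

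RefSeq windows were found for all 9 members, 13 in total, and 8 motifs were searched on both strands. GGGCGG occurred in 8 of the 13 windows, among 7 of the members, and in 35.7% of 32851 windows of the same length over all genes. CACGTG occurred in the Bax window alone among the 13, and in 7.15% of all windows. CCAAT occurred in 3 of the 13, 1 of Bad and 2 of Bcl2l11, and in 37.4% of all windows. The heat shock element core GAANNTTC occurred in 1 Bad window, where it overlaps a GC box, and in 7.86% of all windows. None of the 13 held TATAAA (13.6% of all windows), the cyclic AMP element TGACGTCA (1.79%), the C/EBP-ATF composite core TGATGNAA (3.97%) or the AP-1 site TGANTCA (7.81%). These matches describe letters in the windows and not binding.

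With EnnA at least 1 member of each role was called. Bax and Bcl2l1 rose, while Bok, Mcl1 and Bcl2l11 fell, and Bak1, Bcl2, Bid and Bad were not called. That is 2 members higher and 3 lower of 9, or 55.6%, where 49.2% of all listed genes were called (24.3% higher and 24.9% lower), so the share of members called is near the background. The median log2(FPKM + 1) change of the members was -0.0031, and that of all listed genes was -0.0068.

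Among the effectors, Bax had 247 FPKM with EnnA and 167 FPKM with DMSO, a log2(FPKM + 1) change of 0.56. In the authors' deposited table its log2 ratio was 0.56 (implied SE 0.15), with q = 0.000733. Bok, an effector that the pro-survival proteins restrain poorly and that is turned over by degradation from the endoplasmic reticulum, had 16.9 FPKM with EnnA and 40.9 FPKM with DMSO. Its log2(FPKM + 1) change of -1.23 lies at percentile 2.53 of all listed genes, and its deposited log2 ratio was -1.28 (implied SE at most 0.31), a 2.42-fold lower level with q = 0.000207 in the authors' deposited table. Bak1 had 71.0 FPKM with EnnA and 75.2 FPKM with DMSO and was not called, with a 95% interval of the deposited log2 ratio from -0.38 to 0.21. The 3 effector genes thus differed in direction: the most abundant was higher, the least abundant lower.

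Among the pro-survival genes, Mcl1, which encodes a short-lived protein, had 49.3 FPKM with EnnA and 75.7 FPKM with DMSO. This was a log2(FPKM + 1) change of -0.61 and a deposited log2 ratio of -0.62 (implied SE at most 0.15), with q = 0.000207 in the authors' deposited table. Bcl2l1, the gene of BCL-xL, had 122 FPKM with EnnA and 95.1 FPKM with DMSO, a log2(FPKM + 1) change of 0.35 with q = 0.0356 in the authors' deposited table. That call is lost at a q under 0.01. Bcl2 itself had 2.68 FPKM with EnnA and 2.33 FPKM with DMSO, and the 95% interval of its deposited log2 ratio ran from -0.19 to 0.59. Mcl1 and Bcl2l1 therefore moved in opposite directions.

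Among the BH3-only genes, Bcl2l11, which encodes the activator BIM, had 10.0 FPKM with EnnA and 14.5 FPKM with DMSO. Its log2(FPKM + 1) change was -0.49 and its deposited log2 ratio -0.53 (implied SE 0.15), with q = 0.00166 in the authors' deposited table. Bid, whose protein is cut by caspase-8, had 13.0 FPKM with EnnA and 12.6 FPKM with DMSO (95% interval of the deposited log2 ratio -0.29 to 0.37). Bad, whose protein binds BCL-2 and BCL-xL and is held by 14-3-3 proteins when phosphorylated, had 14.4 FPKM in both groups. Its interval of -0.47 to 0.46 is the widest of the uncalled members, and it is uncertain because its locus is shared with Gpr137. In RefSeq, 4 of the 9 members, namely Bak1, Bcl2l1, Bad and Bcl2l11, overlap another protein-coding gene, and whether the counting used strand is not stated, so their values are also uncertain.

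**Figure D2:**
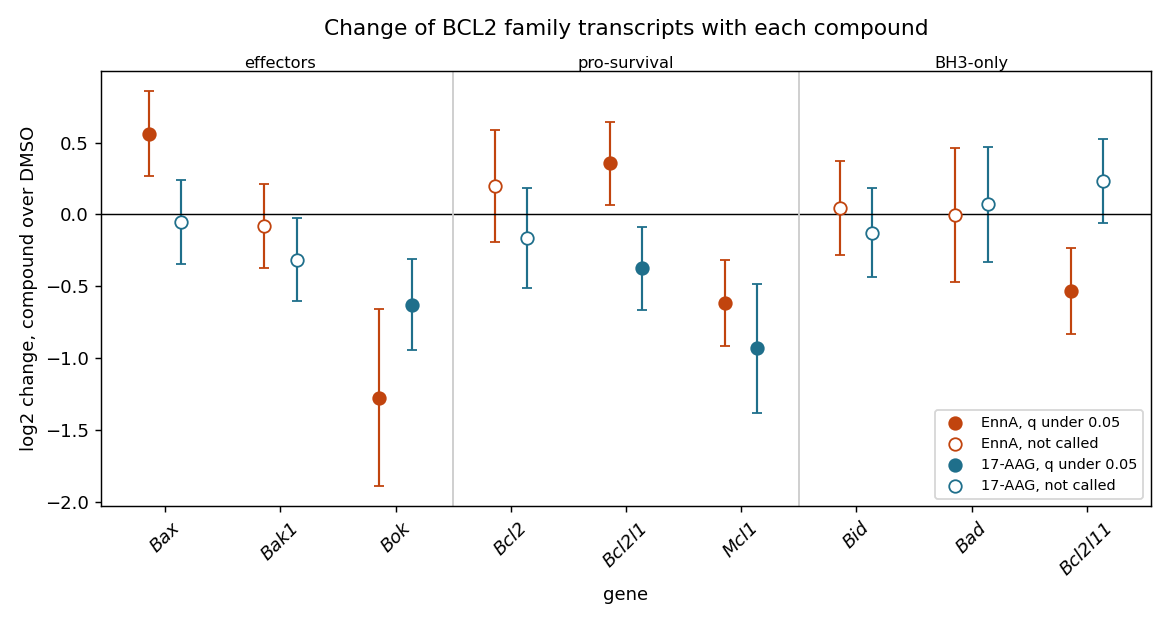
Deposited log2 ratio of compound over DMSO for each gene, with 95% intervals from the implied errors; filled circles have q under 0.05. Bok and Mcl1 lie below 0 with both compounds, and Bcl2l1 is called higher with EnnA (0.36) and lower with 17-AAG (-0.37). The ratios of both compounds rest on the same DMSO libraries.

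With 17-AAG no member was called higher. Mcl1, Bok and Bcl2l1 fell, and Bax, Bak1, Bcl2, Bid, Bad and Bcl2l11 were not called. The 3 of 9 called make 33.3%, where 31.6% of all listed genes were called (15.6% higher and 16.1% lower), again near the background. The median log2(FPKM + 1) change was -0.12 over the members and -0.0077 over all listed genes.

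Mcl1 had 43.5 FPKM with 17-AAG and 82.9 FPKM with DMSO, a log2(FPKM + 1) change of -0.91 that lies at percentile 1.47 of all listed genes. Its deposited log2 ratio was -0.93 (implied SE at most 0.23), a 1.90-fold lower level with q = 0.000453 in the authors' deposited table. Bcl2l1 had 80.4 FPKM with 17-AAG and 104 FPKM with DMSO (log2(FPKM + 1) change -0.37, implied SE 0.15), with q = 0.0368 in the authors' deposited table. This call too is lost at a q under 0.01. Bcl2 had 2.29 FPKM with 17-AAG and 2.55 FPKM with DMSO, a log2(FPKM + 1) change of -0.11. So 2 of the 3 pro-survival genes were lower with 17-AAG and the third was not called.

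The effector Bok had 29.0 FPKM with 17-AAG and 44.8 FPKM with DMSO, a log2(FPKM + 1) change of -0.61 and a deposited log2 ratio of -0.63 (implied SE 0.16), with q = 0.000828 in the authors' deposited table. Bak1 had 66.2 FPKM with 17-AAG and 82.4 FPKM with DMSO; its unadjusted p was 0.0324 by Cuffdiff, and its q of 0.087 in the authors' deposited table missed the threshold. Bax had 177 FPKM with 17-AAG and 183 FPKM with DMSO, with a 95% interval of the deposited log2 ratio from -0.34 to 0.24. None of the BH3-only members was called: Bcl2l11 had 18.6 FPKM with 17-AAG and 15.8 FPKM with DMSO (95% interval of the deposited log2 ratio -0.06 to 0.53). Bid had 12.7 FPKM with 17-AAG and 13.8 FPKM with DMSO, and Bad had 16.6 FPKM with 17-AAG and 15.8 FPKM with DMSO.

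The make-up of each role is described by the FPKM of its genes, which is scaled by length. Length scaling alone does not make levels fully comparable between genes. The values of Bak1, Bcl2l1, Bad and Bcl2l11, which overlap other coding genes, are uncertain here too. The summed FPKM of the effectors was 335 with EnnA and 283 with DMSO, and 272 with 17-AAG and 310.2 with DMSO. The summed FPKM of the pro-survival genes was 174 with EnnA and 173 with DMSO, and 126 with 17-AAG and 190 with DMSO. Those of the BH3-only members were 37.4 with EnnA and 41.5 with DMSO, and 47.9 with 17-AAG and 45.5 with DMSO. With EnnA the pro-survival sum was within 1 FPKM of its DMSO value, while its parts differed: Bcl2l1 made up 70.1% of it with EnnA, 63.7% with 17-AAG and 55.0% with DMSO, and Mcl1 28.4% with EnnA, 34.5% with 17-AAG and 43.7% with DMSO. Among the effectors Bax made up 73.7% with EnnA, 65.0% with 17-AAG and 59.0% with DMSO, and Bok 5.05% with EnnA, 10.7% with 17-AAG and 14.4% with DMSO. No error can be given for these sums and shares.

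**Figure D3:**
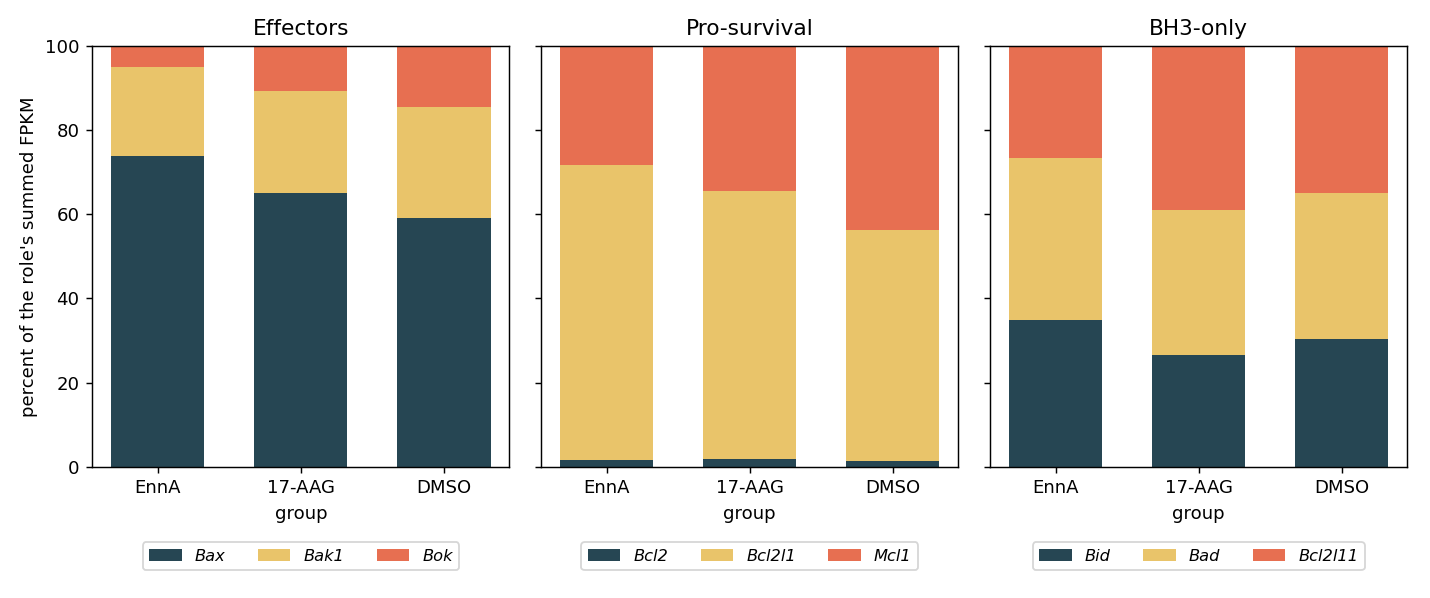
Percent of the summed FPKM of each role contributed by its 3 genes, for EnnA, 17-AAG and DMSO (DMSO of the EnnA table). Mcl1 makes up 28.4% of the pro-survival sum with EnnA and 34.5% with 17-AAG, against 43.7% with DMSO.

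Ratios between members were chosen after the values were seen and restate the levels above, with no test. The Bax level was 5.0 times that of Mcl1 with EnnA and 2.21 times with DMSO, a log2 difference of 1.18 (combined implied SE at most 0.21), and 4.06 times with 17-AAG and 2.21 times with DMSO (log2 difference 0.88, SE at most 0.27). Bcl2l1 over Mcl1 was 2.47 with EnnA and 1.26 with DMSO (log2 difference 0.97, SE at most 0.21), and 1.85 with 17-AAG and 1.26 with DMSO (0.55, SE at most 0.27). Bax over Bcl2l1 was 2.03 with EnnA and 1.76 with DMSO, a log2 difference of 0.21 (combined implied SE 0.21), and 2.20 with 17-AAG and 1.76 with DMSO (log2 difference 0.32, SE 0.21). Bcl2l11 over Mcl1 was 0.203 with EnnA and 0.191 with DMSO (log2 difference 0.08, SE at most 0.22), where both genes had fallen. With 17-AAG it was 0.428, against 0.191 with DMSO, a log2 difference of 1.16 (combined implied SE at most 0.27).

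The compounds differed for 3 of the 9 members in a z test of the difference between their deposited log2 ratios, adjusted over 10922 genes. In that test 38.2% of all genes were called (19.3% higher and 18.9% lower with EnnA), and 33.3% of the members. The comparison is of 7.4 µM EnnA with 0.5 µM 17-AAG, and both log2 ratios rest on the same DMSO libraries. The 2 implied errors were combined as if independent, so the intervals of these differences make no allowance for the shared libraries. Bax was higher with EnnA than with 17-AAG by 0.61 on the log2 scale (95% interval 0.20 to 1.03), and Bcl2l1 by 0.73 (0.32 to 1.14). Bcl2l11 was lower with EnnA by a difference of -0.76 (-1.18 to -0.35). Bcl2l1 was the only one of the 9 called in opposite directions by the tables of the 2 compounds. How many of all genes were called in opposite directions, or in the same direction, by both was not counted. These overlaps therefore have no background to stand against.

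For Bok the difference was -0.65 (95% interval -1.34 to 0.05) and for Mcl1 0.31 (-0.23 to 0.85), so neither was called. Bok is called if the part of the error due to the shared DMSO libraries is removed, taken as 50% of each variance. That setting loosens the test for all genes: 3129 were then called higher and 3044 lower with EnnA, against 2110 and 2059 without it. The remaining intervals were -0.18 to 0.64 for Bak1, -0.16 to 0.88 for Bcl2, -0.28 to 0.62 for Bid and -0.69 to 0.54 for Bad. A difference missed by the test does not show that the compounds act alike on these genes.

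**Figure D4:**
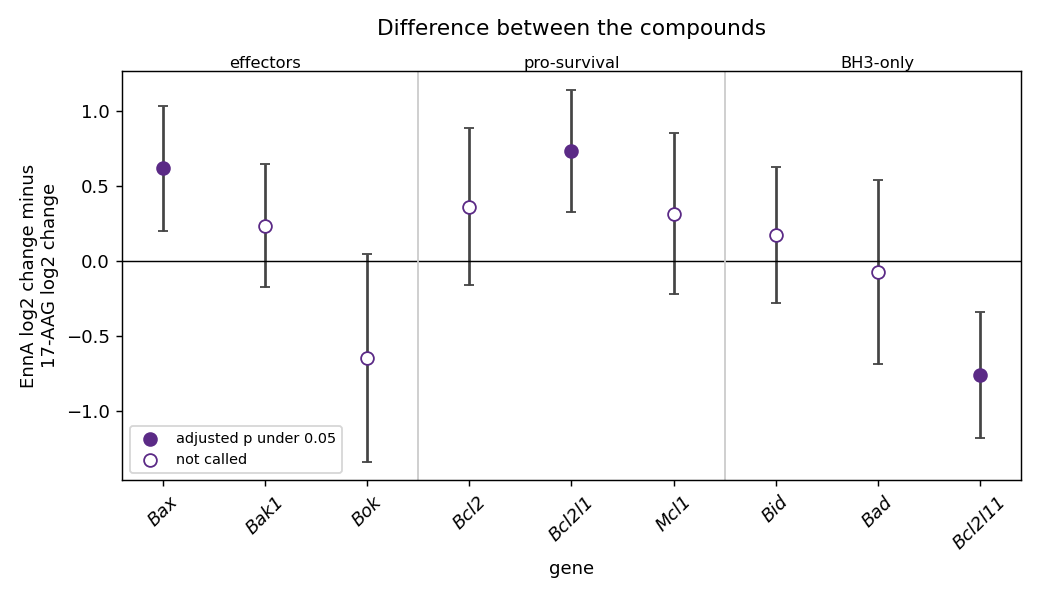
EnnA log2 ratio minus 17-AAG log2 ratio for each gene, with 95% intervals; filled circles have adjusted p under 0.05 over all genes. Bax and Bcl2l1 lie above 0 and Bcl2l11 below it, at 0.61, 0.73 and -0.76. The intervals of Bok and Mcl1 rest on errors that are upper limits.

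Of 20 further BCL2-related genes, 11 were listed in both tables, and they include the BH3-only genes with the widest changes. With EnnA 4 were higher and 5 lower, 81.8% called, where 49.2% of all genes were, and with 17-AAG 2 were higher and none lower, 18.2% called, where 31.6% of all genes were. Their median log2(FPKM + 1) change was -0.14 with EnnA and 0.10 with 17-AAG. The list was drawn up with earlier results of these data known.

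Bbc3, which encodes PUMA, had 25.4 FPKM with EnnA and 11.1 FPKM with DMSO (log2(FPKM + 1) change 1.13, called higher). With 17-AAG Bbc3 had 16.0 FPKM, against 12.1 FPKM with DMSO (0.37, called higher with q = 0.0457 in the authors' deposited table). Its 17-AAG call is lost at a q under 0.01. Pmaip1, which encodes NOXA, a BH3-only protein that binds MCL-1, had 31.7 FPKM with EnnA and 12.8 FPKM with DMSO (1.25, called higher), and 16.8 FPKM with 17-AAG and 14.0 FPKM with DMSO (0.24, not called). Bmf, a BH3-only gene whose protein is held at the cytoskeleton, had 0.385 FPKM with EnnA and 1.64 FPKM with DMSO. With 17-AAG it had 5.11 FPKM, against 1.80 FPKM with DMSO, so it was called in opposite directions, at log2(FPKM + 1) changes of -0.93 and 1.13. The EnnA minus 17-AAG difference of the deposited log2 ratios, called for all of these BH3-only genes, was 0.80 for Bbc3 (95% interval 0.14 to 1.46), 1.05 for Pmaip1 (0.35 to 1.76) and -3.60 for Bmf (-4.85 to -2.35). The Bmf value rests on low levels, 0.385 to 5.11 FPKM. Bbc3, Pmaip1 and Bmf were at the lowest p listed with EnnA, so the errors behind these intervals are upper limits.

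The mitophagy receptor genes Bnip3 and Bnip3l fell with EnnA. Bnip3 had 21.0 FPKM with EnnA and 49.4 FPKM with DMSO (log2(FPKM + 1) change -1.19), and Bnip3l had 40.4 FPKM with EnnA and 58.1 FPKM with DMSO (-0.51). With 17-AAG neither was called, at changes of 0.10 and 0.13. Bcl2l13, another receptor of mitophagy, was higher with EnnA, with 28.5 FPKM against 19.9 FPKM with DMSO (0.50), and had a change of -0.04 with 17-AAG. The difference between the compounds was called for these mitophagy genes, at -1.34 for Bnip3, -0.66 for Bnip3l and 0.56 for Bcl2l13. Bnip1, of vesicle traffic to the endoplasmic reticulum, was higher with EnnA (0.37), and Bnip2 (-0.59) and Bcl2l12 (-0.90, in a locus shared with Gm15545) were lower, with no call for any of them with 17-AAG (0.10, -0.22 and -0.36). The pro-survival gene Bcl2l2, encoding BCL-w, and the autophagy gene Becn1 were called with neither compound: their changes were -0.14 and 0.08 with EnnA, and -0.25 and -0.19 with 17-AAG.

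**Figure D5:**
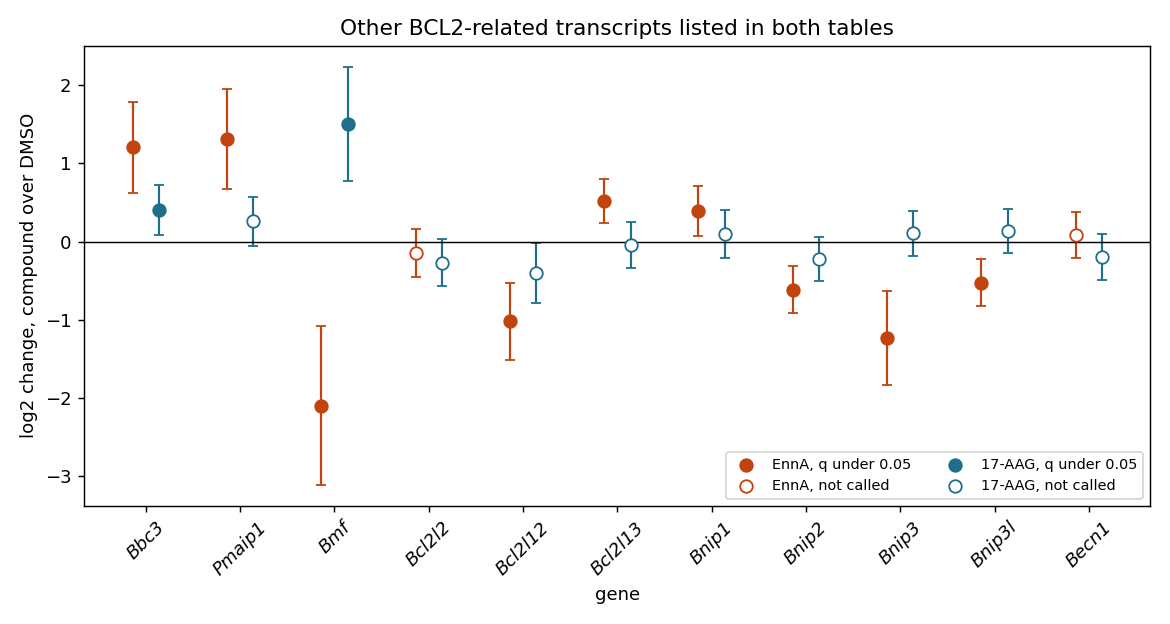
Deposited log2 ratio of compound over DMSO for the 11 other BCL2-related genes, with 95% intervals from the implied errors; filled circles have q under 0.05. Bmf lies at -2.10 with EnnA and 1.5 with 17-AAG, and Bbc3 is above 0 with both compounds.

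Of 20 genes of caspases, their activators, inhibitors and substrates, and proteins released from mitochondria, 19 were listed. With EnnA 2 were higher and 7 lower, 47.4% called against 49.2% of all genes, and with 17-AAG 1 was higher and 5 lower, 31.6% called against 31.6% of all genes, so both shares are near the background. Their median log2(FPKM + 1) change was -0.21 with EnnA and -0.07 with 17-AAG. The executioner caspase gene Casp6 (-1.66) and Casp8, whose product cuts BID (-1.22), fell with EnnA, while Diablo, which encodes an antagonist of caspase inhibitors (0.59), and Casp2 (0.43) rose. With 17-AAG Cycs, which encodes cytochrome c, had 6.87 FPKM against 17.3 FPKM with DMSO (-1.22), and the caspase inhibitor gene Birc6 rose (0.46). Diablo fell with 17-AAG (-0.61).

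Of 24 binding partners and regulators of the proteins, 23 were listed. With EnnA 8 were higher and 4 lower (median log2(FPKM + 1) change 0.12), 52.2% called against 49.2% of all genes, and with 17-AAG 2 were higher and 4 lower (median -0.16), 26.1% called against 31.6% of all genes. Both shares are near the background. Dynll1, a dynein light chain that binds BIM, fell with both compounds (-0.62 with EnnA and -0.70 with 17-AAG). With EnnA Fbxw7, which encodes a ubiquitin ligase subunit that recognises MCL-1, also fell (-0.89), and Bcap31, a BCL-2-binding protein of the endoplasmic reticulum (0.91), and the channel gene Vdac3 (0.83) rose. With 17-AAG Ywhah, a 14-3-3 gene, fell (-0.47), while Huwe1, the gene of a ubiquitin ligase for MCL-1 (0.48), and Usp9x, the gene of a deubiquitinase for MCL-1 in human cells (0.41), rose.

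Of 16 listed of 18 transcription factors and kinases upstream of the family, 8 were higher and 2 lower with EnnA (median log2(FPKM + 1) change 0.34), 62.5% called against 49.2% of all genes. With 17-AAG 4 were higher and none lower (median 0.07), or 25% against 31.6% of all genes. The stress factor genes Atf3 and Ddit3 rose with both, by log2(FPKM + 1) changes of 2.73 and 2.64 with EnnA, and 0.63 and 1.12 with 17-AAG; Ddit3 shares its locus with Mars and is uncertain. The kinase gene Akt1, whose product phosphorylates BAD, and the cell cycle factor gene E2f1 fell with EnnA (-1.15 and -0.95). With 17-AAG they were not called, at -0.23 and 0.14. These lists were chosen with earlier results known.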

How the data were processed

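RNA was sequenced from 6 libraries in 3 groups of 2. Alignment used STAR and the mm9 genome, and quantification and testing used Cufflinks and Cuffdiff, per the submitters' processing notes; for tool versions, nothing is given in the sources used. Of the 2 tables the authors deposited, which were normalized separately, that of EnnA lists 11024 genes and that of 17-AAG 11305. FPKM values in the deposited tables are the authors' values pooled per group. The deposited log2 fold change is DMSO over compound, and its sign was turned. The p-value and q-value in the deposited tables are the authors', q being the Benjamini-Hochberg adjustment over all genes listed.

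From these, log2 changes with a pseudocount of 1 FPKM, implied errors and the difference between compounds were computed with Python 3.11.15 and scipy 1.17.1. The difference was called by a z test, Benjamini-Hochberg adjusted, which was tried on simulated data. There the errors of the 2 log2 ratios were drawn independently, so the simulation could not test the effect of the shared DMSO libraries. A test statistic or values per library were not used here; whether the libraries of a group are separate cultures is not stated, so p-values measure the spread between these libraries alone. Depth per library is unknown. Members and the 4 gene lists were chosen with earlier results of these data known. All members and all listed genes of the BCL2-related list are named, and from the other lists, per compound and direction, the 2 called genes that changed most among those of at least 1 FPKM in either group, except 1 that is not reported here. Diablo with 17-AAG, and Akt1 and E2f1 with 17-AAG, were added after their values were seen, to stand beside their EnnA values. Promoter windows are from RefSeq.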

Additional observations from a re-analysis of the deposited data

How the results depend on the processing

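Among the members, a minimum of 1 FPKM in either group, with p adjusted again, kept every call. A pseudocount of 0.1 or none cannot alter a call, which rests on the authors' q, or a direction. These 2 settings affect only the size of a change, by 0.057 at most. The DMSO column of the other table holds the same libraries, so scaling it gives back nearly the same values. The largest shift of a member was 4.5e-05, so this setting could not test a direction. Centring on the median of all genes turned the sign of Bad with EnnA alone, to 0.0037, an uncalled value. At a q under 0.01, members numbered 1 higher and 3 lower with EnnA, and 0 higher and 2 lower with 17-AAG. All genes at that threshold numbered 2042 higher and 2192 lower with EnnA, and 1105 higher and 1174 lower with 17-AAG. Binding partners numbered 4 higher and 2 lower with EnnA, and 1 higher and 2 lower with 17-AAG. Of the other BCL2-related genes 1 was still higher with 17-AAG, and the call of Bbc3 was lost. With a minimum change of 1.5-fold, no member was higher with EnnA (0), and 2 were lower with each compound, Bok and Mcl1. The calls of Bcl2l11 with EnnA and of Bcl2l1 with 17-AAG were lost. All genes numbered 1400 higher and 1534 lower with EnnA, and 669 higher and 709 lower with 17-AAG. A Bonferroni adjustment called 0 genes in either table, since its smallest possible value at a p of 5e-05 exceeds 0.05; at an unadjusted p under 0.05 the authors' Cuffdiff test had 6001 genes with EnnA and 4682 with 17-AAG. With the shared DMSO error removed, 2 members were lower with EnnA than with 17-AAG, Bok joining Bcl2l11 (-0.65). Calls over all genes also rose with this setting, from 2110 to 3129 higher and from 2059 to 3044 lower with EnnA. No paired analysis was possible because the tables hold pooled values, and for the same reason no library could be left out. FPKM carries no depth, so precision rests on the implied errors; splice forms of Bcl2l1 and Mcl1, which in human cells can encode proteins of opposite action, are summed in 1 value per gene.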
